A study of Mus musculus with 6 samples.

Results

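Immune cell miRNAs were examined as a readout of leukocytes in white adipose tissue (WAT). The 6 miRNAs were the rows of the deposited counts whose mature accessions are those of miR-142a-3p (MIMAT0000155), miR-142a-5p (MIMAT0000154), miR-223-3p (MIMAT0000665), miR-150-5p (MIMAT0000160), miR-155-5p (MIMAT0000165) and miR-342-3p (MIMAT0000590). All 6 were found among the 707 mature miRNAs listed. The rule that picks them uses their accessions alone, and the choice of these 6 was made with earlier results of these data known. The libraries were made from WAT of male ApoE-deficient (ApoE-/-) mice, which lack apolipoprotein E. The 3 control libraries came from mice that were not exposed to chronic intermittent hypoxia (CIH), and the 3 CIH libraries came from mice exposed for 8 weeks. Every mouse of both groups carried the ApoE deficiency, and no wild-type group was included. The fat depot, the age of the mice and whether each library was made from 1 mouse were not given in the sources used here, so the p-values measure the spread between these libraries. The question behind the comparison was which miRNAs change in WAT under CIH, a model of the repeated hypoxia of obstructive sleep apnea.

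A miRNA is cut from a hairpin precursor, and either arm of the hairpin can be loaded into Argonaute, where its seed, bases 2 to 8, pairs with target mRNAs. miR-142 is carried by nearly all cells of the blood lineage and is scarce in other cells. miR-223 is most abundant in neutrophils and other myeloid cells. miR-150 accumulates in mature B and T lymphocytes, where it restrains the transcription factor Myb. miR-155 is induced when macrophages and lymphocytes are activated and represses brakes on inflammation such as Socs1 and Inpp5d. miR-342 is enriched in leukocytes but is also made outside them, from an intron of Evl. White fat holds resident macrophages and lymphocytes, and the number of these cells changes with obesity and inflammation. In bulk tissue, fewer cells of a type and less miRNA per cell cannot be told apart.

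The mature sequences are shown with the seed in capitals. They are reference sequences, and the reference that the authors counted reads against was not given. RefSeq on GRCm38.p6 gave 5 of the 6.
miR-142a-3p: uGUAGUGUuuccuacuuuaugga
miR-142a-5p: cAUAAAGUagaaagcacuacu
miR-223-3p: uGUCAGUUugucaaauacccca
miR-155-5p: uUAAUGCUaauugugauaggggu
miR-342-3p: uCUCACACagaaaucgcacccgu
The 5 seeds differed from each other, and none of them was the seed of any other of the 1679 mature miRNA names in that table. The longest run of bases that miR-142a-5p shared with another mature miRNA was 13, with miR-3964. For the other 4, the longest such run was 8 or 9 bases. The 6 rows each had counts that no other row of the file repeated.

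miR-142a-3p and miR-142a-5p are the arms of 1 hairpin, whose sequence is shown with both arms in capitals because their ratio is compared between libraries.
Mir142: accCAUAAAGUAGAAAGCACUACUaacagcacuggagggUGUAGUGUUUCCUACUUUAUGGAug
This hairpin of 64 bases lies on the plus strand of chromosome 11 (chr11:87756864-87756927, GRCm38.p6), within an intron of the noncoding gene Mir142hg by GENCODE M21. In the structure predicted by RNAfold, 19 base pairs joined the 2 arms across a loop of 15 bases. The annotation also has Mir142b on the opposite strand. miR-223-3p lies at chrX:96242884-96242905 in an exon of the noncoding gene F630028O10Rik. miR-155-5p lies at chr16:84714143-84714165 in an exon of the noncoding gene Mir155hg. miR-342-3p lies at chr12:108658680-108658702 in an intron of the protein-coding gene Evl, whose product regulates actin filaments. All of these are on the plus strand.

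The libraries held between 636963 and 4783768 counts, with control 2 the deepest. Levels are given as CPM (counts per 1e6 counts) after TMM normalization (normalized CPM), which corrects library totals for composition, with factors from 0.575 in control 1 to 1.45 in CIH 3. Control 3 was closer to the CIH libraries than to control 1 and control 2. Over the 633 miRNAs tested, its log2 CPM correlated with those of control 1 and control 2 at 0.595 and 0.661. With those of the CIH libraries its correlations were 0.958 to 0.974. Between control 1 and control 2 the value was 0.831, and for pairs of CIH libraries it was 0.952 to 0.972. Control 1 and control 2 gave 0.621 to 0.712 with the CIH libraries. Control 1 and control 2 thus stood apart from control 3 and the CIH libraries, and less so from each other. These correlations run over miRNAs of libraries labelled as 1 tissue, not over independent samples. For this likeness, the fold changes, the summed level and the ratios between miRNAs are also given without control 3. Because the counts name miRNAs by accession alone, the markers of fat and of other cell types are not analysed here, and the labelled tissue was not checked against them.

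The 6 miRNAs were lower on average in the CIH group than in the control group, by 1.31-fold for miR-342-3p to 5.74-fold for miR-150-5p, but 0 of the 6 passed an adjusted p-value of 0.05. They shared this with all miRNAs tested, of which 0% passed in edgeR's quasi-likelihood test after Benjamini-Hochberg adjustment. At an unadjusted p-value under 0.05, 16 of the 633 passed. The study's text gives no fold cutoff and names no test for the counts in particular. What is called the study's criteria here, an unadjusted edgeR p-value under 0.05 with a change of at least 1.5-fold, is inferred from its significance level and the lines of its volcano plot. By these criteria 1 of the 6 (miR-155-5p) was downregulated, beside 2.53% of all miRNAs tested. The control and CIH libraries overlapped for all 6, whereas the groups did not overlap for 8.06% of all miRNAs tested. The median log2 fold change of the 6 was -1.72, and that of all miRNAs tested was 0.07. The TMM-normalized levels show where this difference lay: control 1 and control 2 were above every CIH library for all 6 miRNAs. This also held for 18.2% of the 614 miRNAs tested without control 3. With library totals it held for 2 of the 6, beside 9.45% of all miRNAs. With TMM, control 3 lay within the CIH range for 4 of the 6 and below it for miR-223-3p and miR-150-5p. Over all miRNAs tested, control 3 lay within the CIH range for 53.7%.

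**Figure D1:**
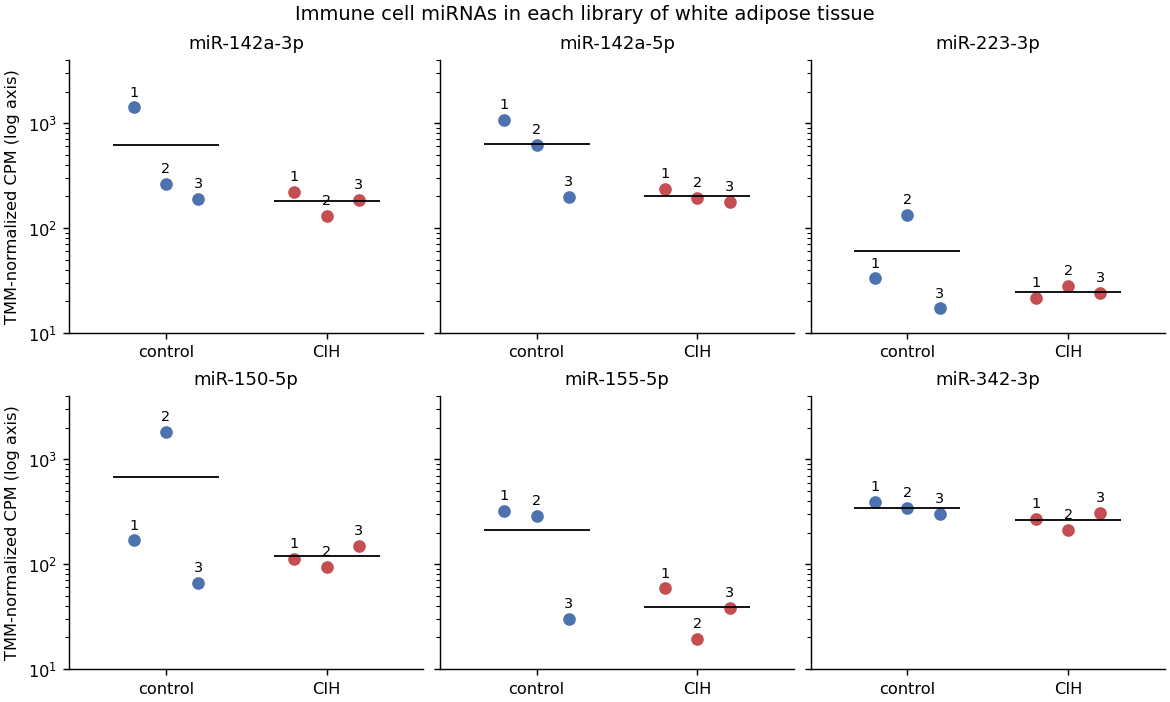
TMM-normalized CPM (log axis) of each miRNA in the 3 control libraries (blue) and the 3 CIH libraries (red), with the replicate number beside each point and the group mean as a bar. Control 3 sits within the range of the CIH libraries in 4 panels and below it for miR-223-3p and miR-150-5p, while control 1 or control 2 stands highest in each panel.

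Both arms of miR-142 were high in control 1. miR-142a-3p had 1113, 1087 and 211 counts in controls 1, 2 and 3, against 274, 121 and 172 in the same-numbered CIH libraries. As normalized CPM these were 1417, 262 and 190 in the controls and 220, 131 and 187 under CIH. Control 1 alone was far above the rest, at 7.91 times the CIH mean, and control 3 lay within the CIH range. The group means were 623 ± 688 (SD, n = 3) for controls and 179 ± 45.1 (SD, n = 3) for CIH. The log2 fold change was -1.80 (standard error 0.92, 95% confidence interval -4.00 to 0.41, adjusted p = 0.882, edgeR quasi-likelihood test). Without control 1 it was -0.32, so most of the difference came from that library.

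miR-142a-5p, the opposite arm, had 849, 2549 and 219 counts in the controls and 294, 178 and 165 under CIH. Its normalized CPM were 1081, 615 and 197 in the controls and 236, 192 and 179 under CIH. Here control 1 and control 2 were both high, at 5.34 and 3.04 times the CIH mean, and control 3 was again within the CIH range. The group means were 631 ± 442 (SD, n = 3) and 202 ± 29.9 (SD, n = 3). The log2 fold change was -1.64 (standard error 0.75, 95% confidence interval -3.44 to 0.16, adjusted p = 0.882, edgeR quasi-likelihood test).

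miR-223-3p, the myeloid miRNA, was the scarcest of the 6. It had 26, 550 and 19 counts in the controls and 27, 26 and 22 under CIH. Its normalized CPM were 33.1, 133 and 17.1 in the controls and 21.7, 28.1 and 23.9 under CIH. Control 2 was 5.41 times the CIH mean, control 1 was slightly above the CIH range and control 3 was below it. The lowest count, 19, has an exact Poisson 95% interval of 11.4 to 29.7, which covers counting error only. The log2 fold change was -1.32 (standard error 0.85, 95% confidence interval -3.36 to 0.72, adjusted p = 0.882, edgeR quasi-likelihood test). Without control 2 it was 0.05, so its direction rested on control 2.

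miR-150-5p, the miRNA of mature lymphocytes, varied most within the control group. It had 132, 7495 and 74 counts in the controls and 140, 87 and 138 under CIH. Its normalized CPM were 168, 1808 and 66.7 in the controls and 112, 94.0 and 150 under CIH. Control 2 was at 15.2 times the CIH mean and 27.1 times control 3, while the CIH libraries lay within 1.59-fold of each other. The group means were 681 ± 978 (SD, n = 3) and 119 ± 28.4 (SD, n = 3). The log2 fold change of -2.52 was the largest of the 6 and also the least certain (standard error 1.26, 95% confidence interval -5.54 to 0.50, adjusted p = 0.882, edgeR quasi-likelihood test). Without control 2 it was 0.10, with the opposite sign.

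miR-155-5p, the activation-induced miRNA, was high in both control 1 and control 2. It had 254, 1190 and 33 counts in the controls and 73, 18 and 35 under CIH. Its normalized CPM were 323, 287 and 29.7 in the controls and 58.6, 19.4 and 38.0 under CIH. Control 1 and control 2 were at 8.36 and 7.42 times the CIH mean, and control 3 was within the CIH range. The group means were 213 ± 160 (SD, n = 3) and 38.7 ± 19.6 (SD, n = 3). The log2 fold change was -2.46 (standard error 0.99, 95% confidence interval -4.82 to -0.10), with an unadjusted p of 0.0435 and an adjusted p of 0.882 in edgeR's quasi-likelihood test. It kept its sign without either of these control libraries, at -2.05 without control 1 and -2.11 without control 2, and it no longer met the study's criteria without either of them or without any single CIH library.

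miR-342-3p was the most even of the 6 across all libraries. It had 307, 1412 and 337 counts in the controls and 335, 195 and 284 under CIH. Its normalized CPM were 391, 341 and 304 in the controls and 269, 211 and 308 under CIH. With TMM all 6 libraries lay between 211 and 391, and control 3 fell just below CIH 3. With library totals they ran more widely, from 212 CPM in CIH 1 to 446 CPM in CIH 3. The group means were 345 ± 43.7 (SD, n = 3) and 263 ± 49.0 (SD, n = 3). The log2 fold change was -0.39 (standard error 0.52, 95% confidence interval -1.64 to 0.86, adjusted p = 0.882, edgeR quasi-likelihood test), so both a decrease of more than 1.5-fold and an increase of that size lie within the interval.

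The spread between libraries was wider in the control group than in the CIH group for 5 of the 6 miRNAs, least so for miR-155-5p. The coefficient of variation of normalized CPM in the control group was 144% for miR-150-5p, 110% for miR-142a-3p, 103% for miR-223-3p, 75.0% for miR-155-5p and 70.0% for miR-142a-5p. In the CIH group it was 23.9%, 25.2%, 13.3%, 50.7% and 14.8% for these miRNAs in the same order. miR-342-3p was the exception, with 12.7% among controls and 18.7% among CIH libraries. A wide control spread was common to the series: in the set of 395 miRNAs that averaged 10 normalized CPM or more, the median was 84.1% among controls and 27.6% among CIH libraries.

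Without control 3, the 6 miRNAs were lower in all 3 CIH libraries than in both remaining control libraries. This holds for 18.2% of the 614 miRNAs then tested. Of the 6, 2 passed an adjusted p-value of 0.05 in edgeR's quasi-likelihood test, beside 2.61% of all miRNAs that passed and were lower under CIH. These were miR-155-5p, with a log2 fold change of -2.99 (standard error 0.57, adjusted p = 0.0168), and miR-142a-5p, with -2.08 (standard error 0.45, adjusted p = 0.0258). By the study's criteria 5 of the 6 were downregulated, beside 12.2% of all miRNAs. miR-150-5p was at -3.08 (adjusted p = 0.0742), miR-142a-3p at -2.24 (adjusted p = 0.0895) and miR-223-3p at -1.78 (adjusted p = 0.104) in the same edgeR test. miR-342-3p stayed outside both calls, at -0.50 (adjusted p = 0.422 in edgeR). These values compare 2 control libraries with 3 CIH libraries, and control 3 was left out because of its likeness to the CIH libraries, so they do not stand as a test of CIH.

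The scaling of the libraries mattered as well. When the counts were divided by library totals in place of TMM-normalized sizes, the CIH libraries were all below control 1 and control 2 for 2 of the 6, miR-142a-5p and miR-155-5p, beside 9.45% of all miRNAs. With this scaling the median log2 fold change was -1.08 for the 6 and 0.33 for the 633 miRNAs tested. miR-155-5p then had 186, 249 and 41.6 CPM in the controls and 46.3, 24.4 and 54.9 under CIH. miR-142a-5p had 622, 533 and 276 CPM in the controls and 186, 241 and 259 under CIH, so that all 3 control libraries were above all 3 CIH libraries on this scale. It was the only one of the 6 whose groups did not overlap with library totals, beside 6.79% of all miRNAs tested. For miR-342-3p the direction itself was uncertain, since without control 3 its log2 fold change was -0.50 with TMM and 0.24 with library totals. Ranks within a library need no scaling. miR-155-5p ranked 108, 107 and 273 of 707 in the controls and 229, 315 and 254 under CIH, and miR-142a-5p ranked 69, 74 and 143 in the controls and 138, 151 and 154 under CIH. By rank all 6 stood higher in control 1 and control 2 than in every CIH library, as did 37.9% of all miRNAs. Fewer miRNAs were detected in control 1 and control 2 (487 and 552) than in the other libraries (631 to 649), and the part of this in the ranks was not tested.

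**Figure D2:**
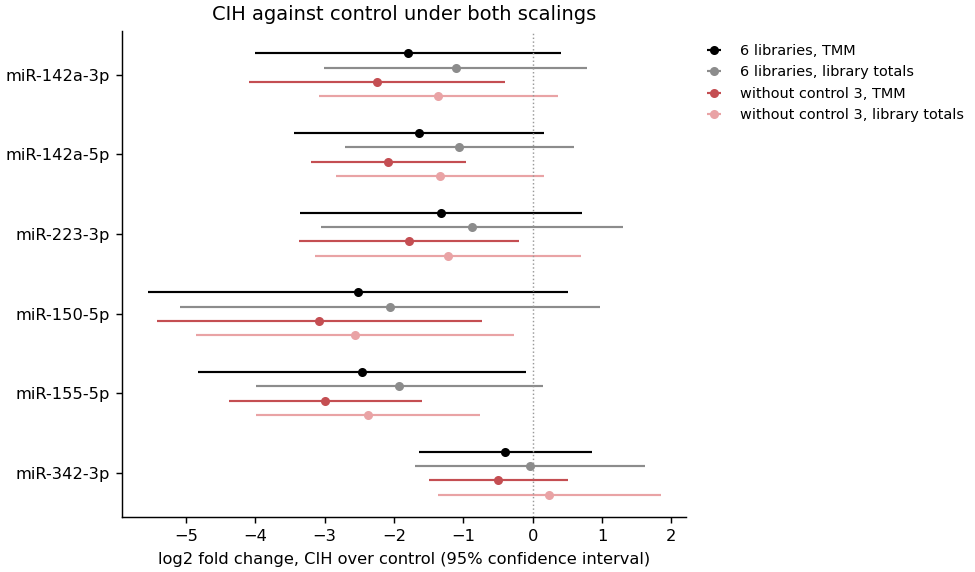
Log2 fold change of CIH over control for each miRNA from edgeR, with 95% confidence intervals, for all 6 libraries and without control 3, each with TMM normalization and with library totals. With all 6 libraries the TMM intervals of 5 miRNAs include 0 and that of miR-155-5p ends at -0.10. Without control 3 the intervals of miR-155-5p and miR-150-5p stay below 0 under both scalings. The intervals are not adjusted over all miRNAs. Without control 3, miR-150-5p had an adjusted p of 0.0742 with TMM and 0.114 with library totals in edgeR's quasi-likelihood test.

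The summed level of the 6 miRNAs gave the same picture. It was 3412, 3446 and 805 normalized CPM in the controls and 918, 675 and 885 under CIH. Control 1 and control 2 were nearly equal on this scale and control 3 lay within the CIH range. With library totals, control 1 and control 2 were at 1963 and 2986 CPM. With TMM, the mean was 2554 ± 1515 (SD, n = 3) for controls and 826 ± 132 (SD, n = 3) for CIH. The mean log2 level was lower under CIH by a difference of -1.37, and of -2.07 without control 3. No test was made on the sum, because the 6 miRNAs were chosen with earlier results of these data known.

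The make-up of the sum differed between control 1 and control 2. In control 1 the arms of miR-142 made up most of the summed counts, with 41.5% (Wilson 95% interval 39.7 to 43.4) for miR-142a-3p and 31.7% (29.9 to 33.5) for miR-142a-5p, and miR-150-5p held 4.92% (4.17 to 5.81). In control 2 miR-150-5p alone held 52.5% (51.7 to 53.3), and miR-142a-3p held 7.61% (7.19 to 8.06). In the 3 CIH libraries and control 3, miR-342-3p was the most frequent of the 6, with 37.7% (34.6 to 41.0) in control 3 and 29.3% (26.7 to 32.0), 31.2% (27.7 to 34.9) and 34.8% (31.6 to 38.1) in CIH 1, CIH 2 and CIH 3. miR-150-5p held 12.2% (10.5 to 14.3), 13.9% (11.4 to 16.9) and 16.9% (14.5 to 19.6) in these CIH libraries, and 8.29% (6.65 to 10.3) in control 3. These intervals cover counting error only, and reads without molecular identifiers are not independent molecules.

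**Figure D3:**
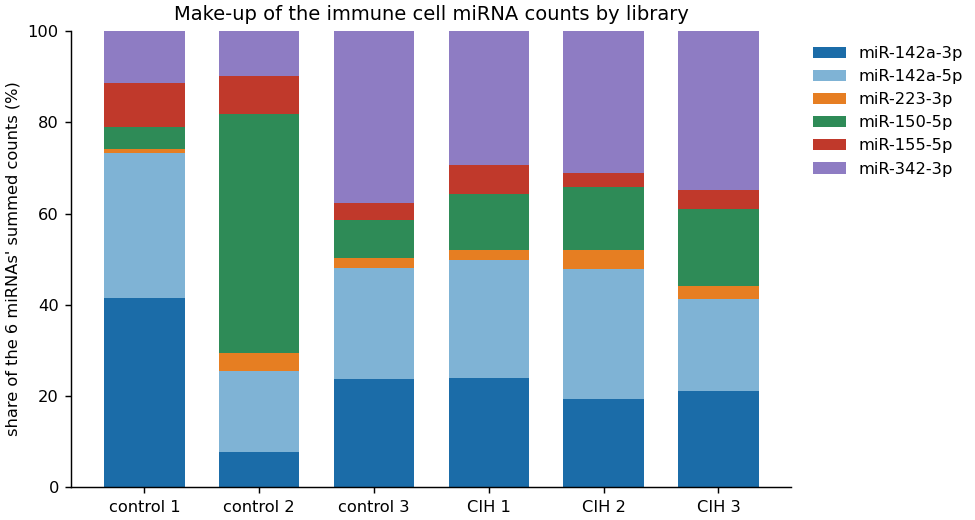
Share of each miRNA in the summed counts of the 6 miRNAs (y axis, percent) for each library (x axis). miR-150-5p fills 52.5% of the bar of control 2 and the arms of miR-142 fill most of the bar of control 1, while control 3 and the 3 CIH libraries resemble each other, with miR-342-3p as the largest part.

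Ratios between miRNAs of 1 library do not depend on how libraries are scaled, and 4 such ratios were compared between the groups. None differed beyond the spread of the libraries (two-sided exact permutation tests, unadjusted p = 0.6 to 0.9, each p = 0.9 after Benjamini-Hochberg adjustment over the 4 ratios, where 3 against 3 libraries cannot give a p under 0.1). For the arms of miR-142, the ratio of 3p to 5p counts ranged from 0.427 in control 2 to 1.31 in control 1. The log2 ratio of 3p to 5p counts was 0.39, -1.23 and -0.05 in the controls and -0.10, -0.55 and 0.06 under CIH. Control 2 was the lowest and control 1 the highest, and the CIH libraries lay between them. The group means were -0.30 ± 0.84 (SD, n = 3) and -0.20 ± 0.32 (SD, n = 3). The difference of the means, CIH minus control, was 0.10, and it was -0.37 without control 2 and 0.22 without control 3.

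The log2 ratio of myeloid miR-223-3p to lymphocyte miR-150-5p was -2.32, -3.77 and -1.93 in the controls and -2.35, -1.72 and -2.62 under CIH. Only control 2 lay outside the range of the CIH libraries. The difference of the means, CIH minus control, was 0.44, and it was -0.10 without control 2 and 0.81 without control 3. The log2 ratio of miR-155-5p to miR-142a-3p was -2.13, 0.13 and -2.66 in the controls and -1.90, -2.72 and -2.28 under CIH. Control 2 was again the one library outside the CIH range, and the difference of -0.75 became 0.095 without it and -1.30 without control 3.

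The log2 ratio of miR-342-3p to miR-150-5p was the most constant within the CIH group, at 1.26, 1.16 and 1.04. In the control libraries it was 1.21, -2.41 and 2.18. Control 1 matched the CIH libraries, and control 2 and control 3 lay on either side of them. The standard deviation was 0.11 under CIH and 2.42 among controls. The difference of 0.82 between the means became -0.55 without control 2 and 1.75 without control 3.

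**Figure D4:**
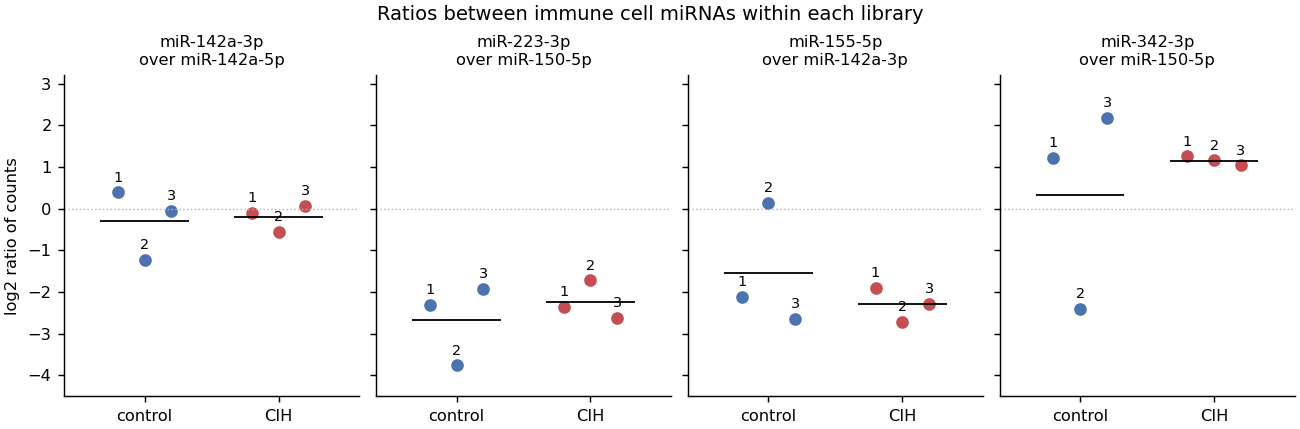
Log2 ratio of counts for 4 pairs of miRNAs in each library, with control libraries in blue, CIH libraries in red, the replicate number beside each point and the group mean as a bar. Control 2 is the lowest or highest library in every panel, and the CIH libraries of miR-342-3p over miR-150-5p fall between 1.04 and 1.26.

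To order the miRNAs by level, their mean normalized CPM were compared. In the CIH group miR-342-3p was highest, at 263 ± 49.0 (SD, n = 3), followed by miR-142a-5p at 202 ± 29.9 (SD, n = 3). miR-142a-3p at 179 ± 45.1 (SD, n = 3) and miR-150-5p at 119 ± 28.4 (SD, n = 3) came next. The libraries of each of these overlapped with those of its neighbour in this order. Lowest were miR-155-5p at 38.7 ± 19.6 (SD, n = 3) and miR-223-3p at 24.5 ± 3.26 (SD, n = 3). Both were below the others in every CIH library and overlapped with each other. In the control group miR-150-5p had the highest mean, at 681 ± 978 (SD, n = 3). Its place rested on control 2, at 1808, against 168 and 66.7 in control 1 and control 3. The arms of miR-142 followed, at 631 ± 442 (SD, n = 3) for miR-142a-5p and 623 ± 688 (SD, n = 3) for miR-142a-3p. miR-342-3p came after them at 345 ± 43.7 (SD, n = 3), and these overlapped. The place of miR-142a-3p rested on control 1. In control 2 and control 3 it had 262 and 190, below the 341 and 304 of miR-342-3p. Adapter ligation favours some small RNA ends over others, so levels of different miRNAs are not exact measures of molecules.

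The profile over the 6 libraries was also compared with that of the other abundant miRNAs. Among 199 miRNAs with a mean of at least 100 normalized CPM, the one most like the mean profile of the 6 was MIMAT0000152, with a Pearson correlation of 0.994 over the 6 libraries. Its normalized CPM were 4008, 5129 and 1425 in the controls and 1673, 1495 and 1610 under CIH. MIMAT0000532 followed at 0.977, and the fifth most alike was at 0.968. All of these points share their libraries and their scaling, and the correlations are descriptions without a test. Within the 6, each miRNA correlated with the mean of the other 5 at 0.573 for miR-142a-3p to 0.965 for miR-155-5p over the same libraries.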

How the data were processed

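The authors deposited raw read counts per mature miRNA accession for 3 control and 3 CIH libraries of WAT, without normalization. The trimming, the aligner, the miRBase release and the treatment of ambiguous reads are not given in the sources used here. Reads of similar miRNAs may therefore have been split or shared. Some pairs of rows outside the 6 had the same counts as each other in all 6 libraries. These rows were not merged, so the numbers for all miRNAs include both rows of such pairs where they passed the filter. The reason for the identical counts was not tested. Libraries were grouped by their labels. No pair of libraries had counts within sampling noise of each other. The file does not pair accessions with names, so lists of partner arms, other leukocyte miRNAs and markers of other cell types were not analysed here. The names of the 6 miRNAs were given with their accessions.

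The 633 miRNAs with at least 10 summed counts were tested with edgeR 4.0.16 (R 4.3.3; TMM; quasi-likelihood test on group alone), and p-values were adjusted over all of them by Benjamini-Hochberg. Standard errors and 95% confidence intervals came from the test statistic. Without control 3 the filter was applied again. Ratios used counts with 0.5 added and a two-sided exact permutation test over libraries (scipy 1.17.1). Shares within a library have Wilson intervals. Log2 CPM for correlations used a prior count of 2. Sequences are from RefSeq (GRCm38.p6), host genes from GENCODE M21, and the hairpin was folded with RNAfold 2.7.2. Alternatives used DESeq2 1.42.0, limma 3.58.1, other scalings, other filters, a replicate block and each library left out. The testing was tried on simulated counts with less spread between libraries than these controls had. That trial does not show how the test behaves at the spread of these controls.

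The miRNAs named are the 6 and, by accession, those most alike in profile. Of the 5 most alike, 2 are named, since their accessions cannot be given names here. The 6 miRNAs and all lists were chosen with earlier results of these data known.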

Additional observations from a re-analysis of the deposited data

How the results depend on the processing

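With all 6 libraries, 0 of the 6 immune cell miRNAs and 0 of all miRNAs had an adjusted p-value under 0.05 in every setting, in edgeR, DESeq2 and limma alike. By the study's criteria the original settings gave 1 of the 6 and 16 of all miRNAs. For the 6, DESeq2 gave 2 and upper-quartile factors 4, and 0 were given by library totals, library sizes without the 5 most abundant miRNAs, limma voom, limma on log2(CPM + 1) and the replicate block. For all miRNAs, DESeq2 gave 26, upper-quartile factors 39, filterByExpr 8, edgeR's exact test 29, limma voom 75, limma on log2(CPM + 1) 37 and the replicate block 3. Of all miRNAs, 3 were higher and 13 lower by these criteria with TMM, 6 and 7 with library totals, 1 and 38 with upper-quartile factors, 7 and 9 with library sizes without the 5 most abundant miRNAs, 68 and 7 with limma voom and 30 and 7 with limma on log2(CPM + 1). With filterByExpr 407 miRNAs were tested, and with at least 10 counts in every library 238 were tested and 11 met the criteria. The cause of these differences was not tested.

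With one library left out, the settings without control 3 that used another scaling or test were chosen after seeing the data. Over all of these, 0 to 5 of the 6 and 0 to 172 of all miRNAs passed after adjustment, and 0 to 6 of the 6 and 1 to 273 of all miRNAs met the study's criteria. Every adjusted call came without control 3. There the adjusted calls among the 6 were 2 with TMM, 1 with library totals, 2 with RLE factors, 5 with upper-quartile factors, 1 with library sizes without the 5 most abundant miRNAs, 2 with limma voom and 4 with DESeq2. The numbers by the study's criteria were 5, 2, 5, 6, 3, 2 and 5 in this order. miR-155-5p had an adjusted p-value under 0.05 in all 7, the largest being 0.0452 with library totals in edgeR's quasi-likelihood test. All 7 leave out the same control library, chosen for its likeness to the CIH libraries, so their agreement does not stand as a test of CIH. Of all miRNAs, 118, 119, 119, 170, 126, 134 and 172 were called in this order, and 225, 202, 226, 273, 204, 216 and 235 met the study's criteria. Without any other single library, 0 of the 6 met the study's criteria, beside 2.61% and 3.13% of all miRNAs without control 1 and control 2, and 0.965%, 0.969% and 0.162% without CIH 1, CIH 2 and CIH 3.

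The log2 fold changes of miR-142a-3p, miR-142a-5p and miR-155-5p were below 0 in all 26 fits. With each library left out, that of miR-223-3p ran from -1.78 to 0.050 and that of miR-150-5p from -3.08 to 0.098, the reversals coming without control 2. That of miR-342-3p reversed without control 3 to 0.24 with library totals and 0.050 with library sizes without the 5 most abundant miRNAs. The cause was not tested. The log2 difference of the summed level lay between -2.07 and -1.02 when single libraries were left out, and between -1.95 and -1.02 over the scalings.

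The log2 ratio of miR-142a-3p to miR-142a-5p differed by 0.10, and by -0.37 to 0.44 with each library left out, reversing without control 2 (-0.37) and without CIH 3 (-0.03). The ratio of miR-223-3p to miR-150-5p ran from -0.10, without control 2, to 0.81. The ratio of miR-155-5p to miR-142a-3p ran from -1.30 to 0.095, and that of miR-342-3p to miR-150-5p from -0.55 to 1.75, each reversing without control 2 to 0.095 and -0.55. An added count of 1 in place of 0.5 reversed none of the 4.

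Replicate numbers 1 to 3 occur in both groups. Libraries that share a number deviated from their group means with correlations of 0.353, -0.116 and 0.0195. Libraries with different numbers were not compared in this way, so these values cannot show whether libraries were paired. With the replicate block, no adjusted call was made (0 of the 6, 0 of all miRNAs), the log2 fold change of miR-155-5p was -2.07 (adjusted p = 0.819, edgeR), and the mean differences of the 4 ratios were 0.10, 0.44, -0.75 and 0.82. Single counts near 20 limit miR-223-3p and miR-155-5p in the shallower libraries.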
